A study of Nasonia vitripennis and Nasonia giraulti with 12 samples.

Results

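The difference between the species was measured in adult males of a pair of related species of jewel wasp, Nasonia giraulti (strain R16A) and Nasonia vitripennis (strain AsymCX), from messenger RNA of whole bodies. It rests on 6 of the 12 libraries of the series, chosen by the species and sex in their labels, 3 from N. giraulti males and 3 from N. vitripennis males. Each library was a pool of 10 animals collected 24 h after they left the pupal case, from 2 ug of total RNA, and the labels describe the 3 pools of a group as separate biological batches. The remaining libraries, 3 from N. giraulti females and 3 from N. vitripennis females of the same age and strains, served as a comparison for the males. No treatment or engineered allele is named for any group. Each species is represented by a single strain, so a difference between the species and a difference between these strains cannot be told apart.

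Nasonia wasps are parasitoids that lay their eggs on fly pupae. Sex is set by ploidy: unfertilised eggs give haploid males, which make sperm without a reductional division, and fertilised eggs give diploid females. Males of these species are known to differ in wing size, courtship behaviour and pheromone chemistry, and N. giraulti males have larger wings than the short-winged N. vitripennis males. The genes carry identifiers of an annotation that the files do not pair with names, and no identifier was found in the table of names at hand, so no function is given to any gene below and single genes are called by identifier or rank.

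Reads had been counted for 24337 genes. Totals ran from 26494193 to 39597569 counts in the N. giraulti male libraries and from 23763596 to 51374887 in the N. vitripennis male libraries, and 16536 genes passed a filter on low counts and were tested. Levels are given as CPM, the count of a gene relative to the scaled size of its library. On the log2 CPM scale the correlation across genes was 0.955 to 0.984 between libraries of the same species and 0.851 to 0.876 between species. The first principal component of the 6 male libraries held 75.2% of their variance and separated the species without overlap. The second held 13.8% and separated number 1 from the other two libraries in both species, with number 1 of N. giraulti farthest out. Counts of calls are therefore also given without single libraries and for the numbers 2 and 3 alone.

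Many genes differed between the species' males, in both directions and mostly by more than 2-fold. In N. giraulti males 2483 genes were higher and 2742 lower than in N. vitripennis males, with 3 libraries per species (quasi-likelihood test of edgeR, threshold of 0.05 on the p-value adjusted by Benjamini and Hochberg). These are 15.0% and 16.6% of all genes tested, together 31.6%. Among them, 2033 were at least 2-fold higher and 2367 at least 2-fold lower. Larger differences lay more often on the lower side: a 10-fold or larger difference was found in 548 higher and 875 lower genes, 3.31% and 5.29% of genes tested. At 100-fold or more there were 70 genes higher and 243 lower. The interquartile range of the log2 fold change over all tested genes ran from -0.57 to 0.53, with a median of -0.01 and a median absolute difference of 0.55, a factor of 1.46.

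**Figure D1:**
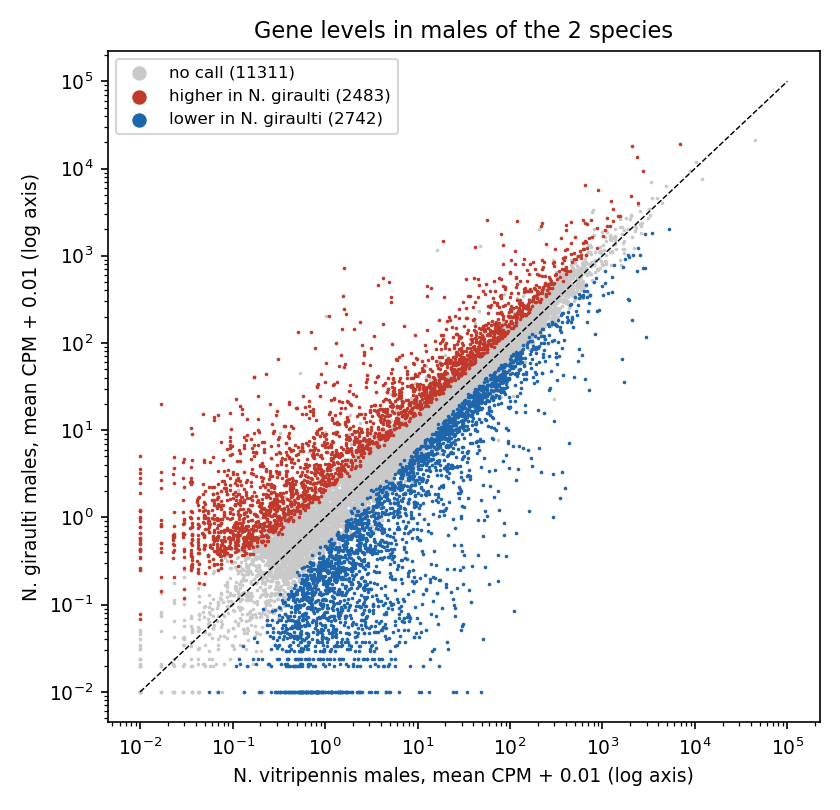
Each point is 1 of the 16536 tested genes, placed by its mean level in 3 N. giraulti male libraries (vertical, CPM + 0.01, log axis) and in 3 N. vitripennis male libraries (horizontal, same scale), coloured by the call. The 2742 genes lower in N. giraulti males spread far below the dashed line of equal level, down to genes with no reads in N. giraulti males, and the 2483 higher genes lie above it.

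The calls rested on libraries that separated. The 3 libraries of each species did not overlap for 2430 of the 2483 genes called higher and for 2702 of the 2742 called lower, against 44.4% of all genes tested. Between libraries of the same number, 2475 to 2477 of the genes called higher had a higher log2 CPM in N. giraulti, and 2736 to 2739 of those called lower had a lower one. Those genes were picked on the same libraries, so this describes the calls and is no separate test. Which direction held more calls depended on the fit. Of all calls, 47.52% were higher in N. giraulti with TMM scaling (trimmed-mean factors, used throughout) and 35.29% with library size alone, which moved the median of all genes to a log2 fold change of -0.21. Without replicate 1, 2 or 3 of the N. giraulti males the counts were 2697 and 2505, 2608 and 2075, and 2745 and 2110, and without replicate 1, 2 or 3 of the N. vitripennis males 2679 and 2245, 2382 and 2185, and 2354 and 2158, higher before lower in each pair. In all 6 of these fits more genes were higher than lower, opposite to the fit of all libraries, while in the 8 libraries numbered 2 and 3 the counts were 2775 higher and 3211 lower. The median log2 fold change of all genes moved too, from -0.007 in the main fit to between 0.072 and 0.158 in the 6 fits. It was -0.014 in the 8 libraries. With the replicate number as a block, which pairs the libraries by number, 3550 genes were higher and 3886 lower, together 45% of genes tested. The excess of 10-fold differences on the lower side was found in every alternative fit. The counts depend on how well reads aligned, and the reference used for each species was not given in the sources used here. A lower level in a species and poorer alignment of its reads cannot be told apart. Genes missing from the annotation could not be counted, and whether it covers both species equally was not given in those sources.

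In the main fit, the genes called higher took up a larger part of the N. giraulti male transcriptome than the more numerous lower genes took of the N. vitripennis one. The 2033 genes higher by 2-fold or more held 21.1% ± 1.11 of all counts in N. giraulti males and 6.11% ± 0.446 in N. vitripennis males (SD, n = 3 each). The 2367 genes lower by 2-fold or more held 2.47% ± 0.0787 of counts in N. giraulti males and 10.3% ± 0.598 in N. vitripennis males. The 243 genes at least 100-fold lower held 0.00171% ± 0.000605 of counts in N. giraulti males and 0.399% ± 0.0379 in N. vitripennis males. These shares describe genes chosen on the same counts and by the calls under TMM. Shares by the calls of other fits are not given here.

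Level and direction went together. Levels and ranks of genes are by counts, not per length, because gene lengths are not in the table. In the lowest quartile of mean level over both species' males (median 0.485 CPM), 862 genes were higher in N. giraulti males and 1199 lower. Quartiles 2 and 3 had 663 higher and 739 lower, and 386 higher and 461 lower. In the quartile with the highest level (median 91.4 CPM), 572 were higher and 343 lower. Among the 500 most abundant genes 116 were higher and 52 lower, 23.2% and 10.4%, with a median log2 fold change of 0.30. With library size alone the top quartile turned, to 384 higher and 648 lower, and the 500 most abundant genes had 92 and 76. The lowest quartile had more lower than higher genes in each alternative fit. The mean itself is low where a species has almost no reads, and the filter could keep a gene through the species in which it was high.

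At the very top of the transcriptome the species shared genes but not their order. The 10 most abundant genes of N. giraulti males and the 10 of N. vitripennis males had 5 genes in common. The 10 of N. giraulti males held 11.1% ± 0.791 of counts in N. giraulti males and 9.69% ± 1.48 in N. vitripennis males, and the 10 of N. vitripennis males held 8.19% ± 0.855 of counts in N. giraulti males and 10.8% ± 1.67 in N. vitripennis males (SD, n = 3 each). Of the first 10, 5 passed the test, each higher in N. giraulti males, and of the second 10, 1 was called higher and 1 lower. Genes picked for a high level in a species tend to be higher there, so these counts are a description. The same gene ranked first in both, at 21150 CPM ± 2770 in N. giraulti males and 44850 CPM ± 17800 in N. vitripennis males. Its log2 fold change of -1.08 (SE 0.41) did not pass the test (edgeR adjusted p = 0.0607), although the libraries of the species did not overlap. It too was nearly limited to males, with means of 30.4 CPM in N. giraulti females and 63.0 CPM in N. vitripennis females.

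Of the 5 abundant genes higher in N. giraulti males, 4 were expressed far more in males than in females of either species. The gene of rank 4 in N. giraulti males stood at 15320, 13860 and 11110 CPM in them and at 3432, 997 and 2643 CPM in N. vitripennis males. It averaged 5.69 CPM in N. giraulti females and 3.86 CPM in N. vitripennis females. The gene of rank 10 had little spread, with 6613, 6400 and 6189 CPM in N. giraulti males and 618.4, 649 and 683.3 CPM in N. vitripennis males, a log2 fold change of 3.30 (SE 0.28; edgeR adjusted p = 3.19e-06). Its female means were 23.8 CPM in N. giraulti and 6.09 CPM in N. vitripennis. The gene of rank 7 showed the same arrangement, at 9375 CPM ± 1690 in N. giraulti males and 2725 CPM ± 270 in N. vitripennis males, with means of 16.2 CPM in N. giraulti females and 2.86 CPM in N. vitripennis females. The gene of rank 2 was the exception, with female means of 1320 CPM in N. giraulti and 1520 CPM in N. vitripennis beside 19020 CPM ± 2890 in N. giraulti males and 6827 CPM ± 526 in N. vitripennis males. Its log2 fold change was 1.48 (SE 0.27; edgeR adjusted p = 0.000895). Among the 500 most abundant genes of males, 28 had every female library more than 10-fold below the male mean. Of these 28, 10 were called higher and 3 lower in N. giraulti males, beside 23.2% and 10.4% of all 500. The 10 include the genes of rank 4, 7 and 10 described above, so this count is no separate support.

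A rule picked 2 genes in each direction, the gene with the largest difference in mean level and the gene with the largest fold change at 10 CPM or more in the higher species. The largest difference in level toward N. giraulti was that of Nasvi2EG000206, which had rank 3 in N. giraulti males. It had 24220, 14660 and 14810 CPM in N. giraulti males and 2747, 920.4 and 2595 CPM in N. vitripennis males. Every N. giraulti male library was above every N. vitripennis one, and the library numbered 1 was the highest in both species. The log2 fold change was 3.10 (SE 0.41; edgeR adjusted p = 8.06e-05), and it passed in each of 24 alternatives, with values from 2.87 to 3.52. In females the gene was low, at 40.15 CPM ± 8.83 in N. giraulti and 18.57 CPM ± 5.53 in N. vitripennis.

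The largest fold toward N. giraulti at such a level was that of Nasvi2EG020391, a gene present in N. giraulti and nearly without reads in N. vitripennis. Its counts were 814, 633 and 393 in N. giraulti males, and 1 read in all 3 N. vitripennis male libraries together. In CPM this was 23.73, 20.98 and 15.96 in N. giraulti males, 2110 times the pooled level of N. vitripennis males (exact binomial 95% interval 379 to 83500, counting error alone; edgeR adjusted p = 1.81e-07). The difference was present in females too, with 1621 reads in N. giraulti females and 2 reads in N. vitripennis females. The species difference in males minus that in females was 1.44 on the log2 scale (SE 1.17) and did not pass the interaction test (edgeR adjusted p = 0.652).

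Toward N. vitripennis, the largest difference in level was that of Nasvi2EG006973, at 1552, 2384 and 2069 CPM in N. giraulti males and 7870, 3026 and 5007 CPM in N. vitripennis males. The libraries did not overlap, but the N. vitripennis males differed among themselves by more than 2-fold. The log2 fold change was -1.40 (SE 0.44; edgeR adjusted p = 0.028). The call was lost in 7 of 23 alternatives, among them the fits without replicate 1 of the N. vitripennis males, where the log2 fold change was -0.85 (adjusted p = 0.181), and without replicate 1 of the N. giraulti males (-1.13, adjusted p = 0.119). It was also lost without replicate 3 of the N. vitripennis males (adjusted p = 0.0666) and without replicate 2 or 3 of the N. giraulti males (0.0655 and 0.0946), within a range of 0.00688 to 0.295 by edgeR or DESeq2. This gene holds fractional counts, so reads were divided between it and another row and its level is uncertain. Females had 162.3 CPM ± 18.0 in N. giraulti and 414.6 CPM ± 263 in N. vitripennis, a log2 fold change of -1.35 (SE 0.44; edgeR adjusted p = 0.0351). That call was lost in 14 of 21 alternatives, with log2 values from -1.74 to -0.76 and adjusted p from 0.00474 to 0.374 by edgeR or DESeq2, and without replicate 1 of the N. vitripennis females it was -0.78 (edgeR adjusted p = 0.177).

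The largest fold toward N. vitripennis was that of Nasvi2EG000207, whose identifier follows that of Nasvi2EG000206. It had 0 reads in each of the 3 N. giraulti male libraries, and 39.07, 41.97 and 62.99 CPM in N. vitripennis males. Taking 3 counts over the 3 libraries as the floor, it was at least 1360-fold lower in N. giraulti males (edgeR adjusted p = 4.36e-07). Females of both species had reads, 19, 13 and 24 in N. giraulti and 64, 42 and 82 in N. vitripennis, a pooled ratio of 0.248, N. giraulti over N. vitripennis (95% counting interval 0.18 to 0.336). In sum, N. giraulti females had 56 reads in this row, a mean of 0.475 CPM, and N. giraulti males had 0. The species difference in males exceeded that in females in the interaction test (edgeR adjusted p = 3.42e-05). The cause of the missing reads was not tested.

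**Figure D2:**
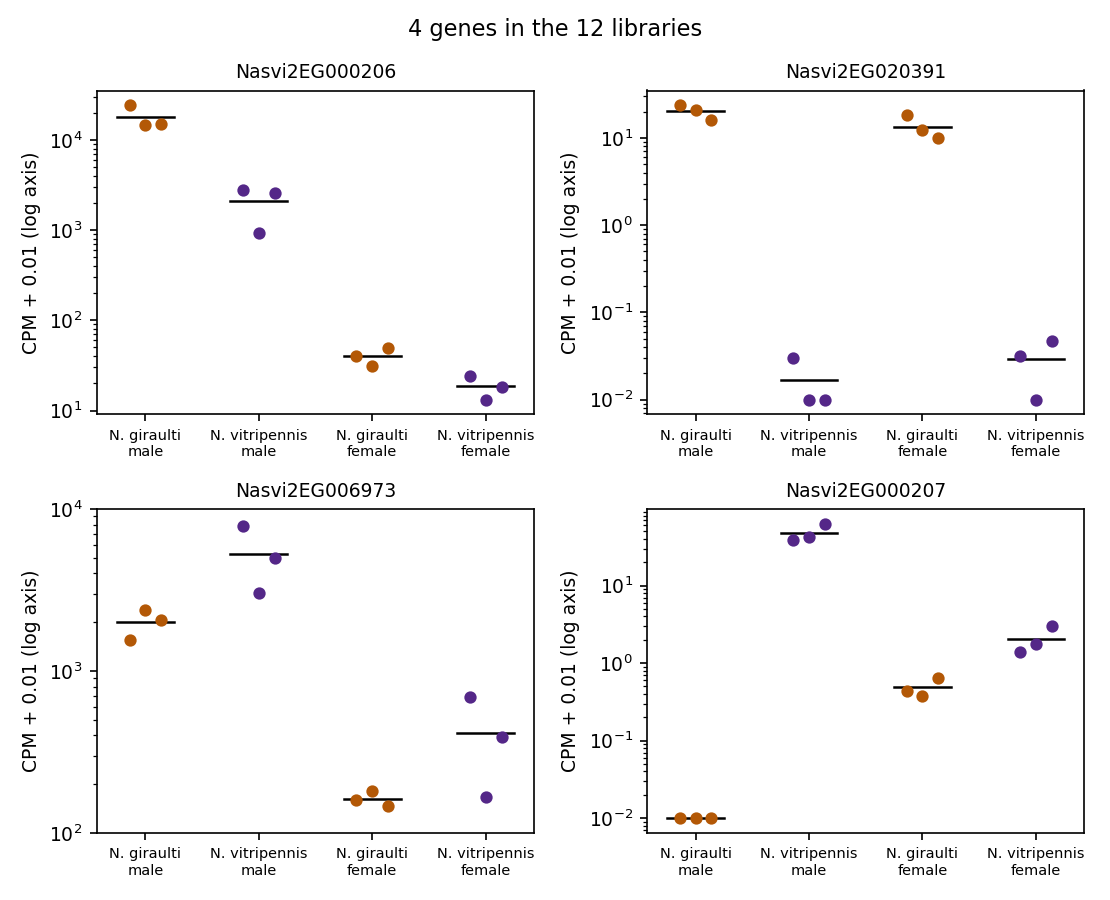
Levels of the 4 genes picked by the rule in all 12 libraries (CPM + 0.01, log axis); points are libraries, horizontal lines are group means, N. giraulti is orange and N. vitripennis purple. Nasvi2EG000206 stands highest in N. giraulti males, Nasvi2EG020391 is near the bottom of the axis in both sexes of N. vitripennis, and Nasvi2EG000207 lies on the bottom line, 0 reads, in N. giraulti males and not in N. giraulti females.

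Genes nearly without reads in the males of one species were counted over all 24337 genes, with CPM by library size. At most 3 reads in all N. giraulti male libraries, and 1 CPM or more in every N. vitripennis male library, were found for 143 genes. The reverse, at most 3 reads in N. vitripennis males and 1 CPM or more in every N. giraulti male library, was found for 32. Most belonged to both sexes: 119 of the 143 also had at most 3 reads in N. giraulti females, and 18 of the 32 in N. vitripennis females. Only 4 of the 143 reached 1 CPM in every N. giraulti female library, Nasvi2EG000207 not being among them at 0.475 CPM, and 0 of the 32 did so in N. vitripennis females. The genes were weakly expressed where present, with a median of 2.89 CPM in N. vitripennis males for the 143 and 2.52 CPM in N. giraulti males for the 32. At 10 CPM or more in the other species the counts were 13 and 2, and with 0 reads in place of 3 they were 39 and 5. All 175 had passed the filter and were called by edgeR, which their selection nearly fixes, and 20 of them share reads with another row. A count of 3 over a group corresponds to 0.0303 CPM in N. giraulti males and 0.03 CPM in N. vitripennis males, and such floors and intervals cover counting error only. Only genes held by the annotation could be counted. Whether it covers both species equally was not given. The 143 against 32 therefore cannot be told apart from a one-sided gene set.

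Genes that were almost absent from females were mostly lower in N. giraulti males. Genes were classed by their highest level in any of the 6 female libraries, among the 12967 genes with a mean of 1 CPM or more over both species' males. The female libraries are not in the male contrast itself, but they enter the filter, the scaling and the estimates of spread of the shared fit. Of these 12967 genes, 13.8% were called higher and 14.2% lower. There were 65 genes under 0.1 CPM in every female library. Of these, 35 (53.8%) were called lower in N. giraulti males and 1 (1.54%) higher, and 62 had a log2 fold change below 0. The median was -1.34 and the interquartile range -2.15 to -0.93. The median level was 3.48 CPM in N. giraulti males and 8.60 CPM in N. vitripennis males.

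**Figure D3:**
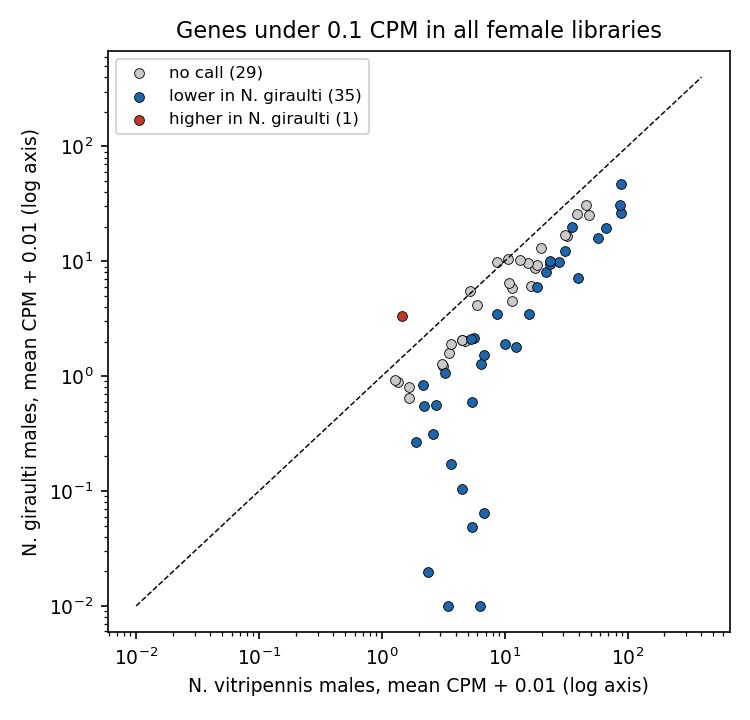
Each point is 1 of the 65 genes under 0.1 CPM in all female libraries, placed by its mean level in N. giraulti males (vertical) and in N. vitripennis males (horizontal), CPM + 0.01 on log axes. The dashed line marks equal level; 62 of the points lie below it and 3 above it, of which 1 was called higher in N. giraulti.

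Summed over the 65 genes, the level was 472, 489 and 483 CPM in N. giraulti males and 700, 1190 and 1500 CPM in N. vitripennis males. All 3 N. giraulti libraries were below all N. vitripennis ones, and the spread was far wider in N. vitripennis, where the library numbered 1 was lowest. In the female libraries the sum was 0.68 to 1.36 CPM in N. giraulti and 0.966 to 1.35 CPM in N. vitripennis. By number, the median log2 ratio of N. giraulti over N. vitripennis was -0.82 for the libraries numbered 1, -1.23 for those numbered 2 and -1.80 for those numbered 3, with 51, 61 and 64 of the 65 genes below 0. The number of lower genes was 22 without replicate 2 and 21 without replicate 3 of the N. vitripennis males, and 51 in the libraries numbered 2 and 3. Relative to the median of all genes, the class median lay between -1.64 and -1.04 in every alternative, other scalings included. The class was drawn after its values were known and has no test of its own. In whole-body RNA, fewer cells of a type and less RNA per cell cannot be told apart.

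The shift faded as the level in females increased. Between 0.1 and 1 CPM in females, 108 of 681 genes rose and 206 fell in N. giraulti males relative to N. vitripennis males, 15.9% and 30.2%. Between 1 and 10 CPM the shares were 19.0% and 19.9% of 3049 genes, and between 10 and 100 CPM 12.1% and 12.4% of 5900. At 100 CPM or more in females 11.9% of 3272 genes were higher and 8.07% lower. The classes were not matched for level in males. In the lowest quartile of level in males 20.9% of genes were higher and 29.0% lower, and in the top quartile 13.8% and 8.3%. A link to the level in females apart from that in males was not tested. The mirror-image class in females was also mostly lower in N. giraulti. Of 55 genes under 0.1 CPM in every male library and at 1 CPM or more over females, 10 (18.2%) rose and 27 (49.1%) fell in N. giraulti females relative to N. vitripennis females, beside 9.75% and 16.5% of the 12363 genes at that level in females. In the 12363 genes the balance turned with scaling, to 1609 higher and 1279 lower under upper-quartile scaling and 1589 and 1219 under library size alone. In the 55 genes more were lower than higher in each of 22 alternatives, with 11 and 25 under upper-quartile scaling and 11 and 26 under library size alone. Whether the males' shift differed from the females' was not tested.

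**Figure D4:**
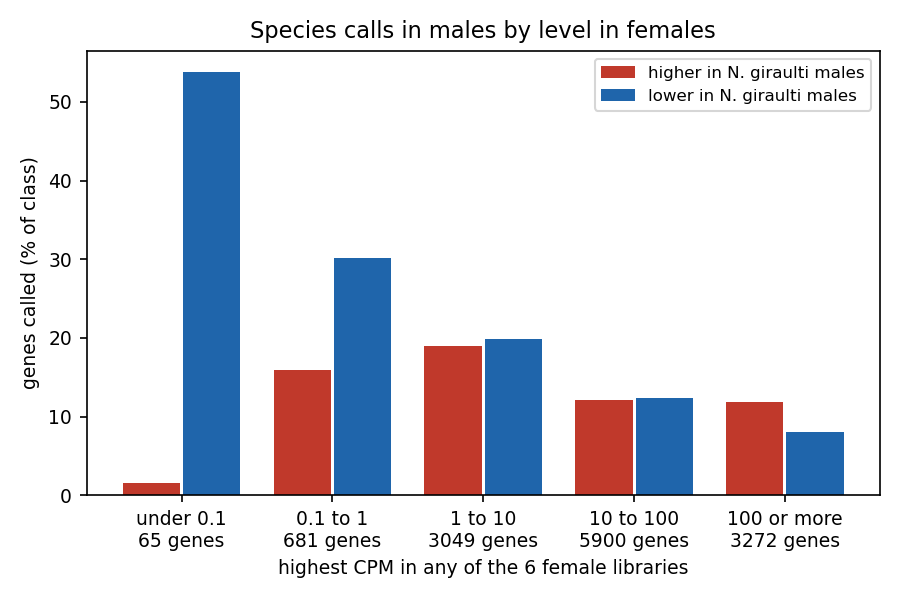
Share of genes called higher (red) and lower (blue) in N. giraulti males against N. vitripennis males, by the highest level of the gene in any female library (CPM), among genes at 1 CPM or more in males. In the class under 0.1 CPM 53.8% were lower and 1.54% higher, and at 100 CPM or more 8.07% were lower and 11.9% higher.

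The females, which share no library with the males, showed how far the male difference belonged to the species as a whole. Both contrasts come from the same fit. In females 12.5% of genes were called higher and 18.4% lower in N. giraulti. That balance turned with scaling, to 2595 genes higher and 2166 lower under upper-quartile scaling and 2552 and 2114 under library size alone, beside 2065 and 3042 under TMM. It also turned without any single male library, with 2382 to 2654 genes higher and 2162 to 2439 lower. The median log2 fold change of all genes in females was then -0.037 to -0.028, beside -0.201 in the main fit. Of the 2483 genes higher in N. giraulti males, 1305 (52.6%) were higher in N. giraulti females as well and 99 were lower there. Of the 2742 lower genes, 1652 (60.2%) were lower in females too and 62 were higher. The genes called higher in males had a median log2 fold change of 1.93 in males and 1.21 in females, and those called lower had -2.24 in males and -1.48 in females. These genes were picked by their male values, which favours larger medians in males. The same medians for genes picked in females were not computed. Across the 16536 genes the male and female log2 fold changes correlated with a Pearson r of 0.752 and a Spearman rho of 0.623. The points are genes that share libraries and scaling, so this is a description. The libraries numbered alike in males and females also deviated together. In the fit with the replicate block 1896 genes were higher and 2518 lower in both sexes.

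A further 1079 genes higher in males and 1028 lower in males had no call in females, but a missing call does not show that the sexes differed. In the test of that difference, 275 of the 1079 and 181 of the 1028 passed (interaction contrast, edgeR adjusted p under 0.05). The background is 7.02% of all genes, with 4.29% shifted up and 2.73% shifted down in males. Genes called in males and not in females were picked from the same fit, which favours passing, so these shares are a description. The order of the 275 and the 181 turned with scaling, to 208 and 243 under upper-quartile scaling and 151 and 344 under library size alone. In the fit with the replicate block these counts were 586 and 318, the 275 became 178 without replicate 3 of the N. vitripennis males, and the 181 became 116 without replicate 2 of the N. giraulti males. The 275 genes had a median log2 fold change of 1.75 in males and -0.25 in females. The 181 genes had -2.48 in males and 0.04 in females. Those medians follow in part from the same choice, and the median of all tested genes in females was -0.201. The 275 and the 181 were also compared by level. Most of them were expressed in females: 226 of the 275 (82.2%) and 110 of the 181 (60.8%) had 1 CPM or more in the females of both species, while 38 and 59 were under 1 CPM in both. The same share over all tested genes is not given here. By a looser measure, a mean of 1 CPM or more over both species' females, 12363 of all 16536 tested genes were expressed. Expression in females is thus no particular trait of these sets. Scaling moved the balance of the interaction, with 61.15% of its calls shifted up in males under TMM, 46.21% under upper-quartile scaling and 34.88% under library size alone.

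**Figure D5:**
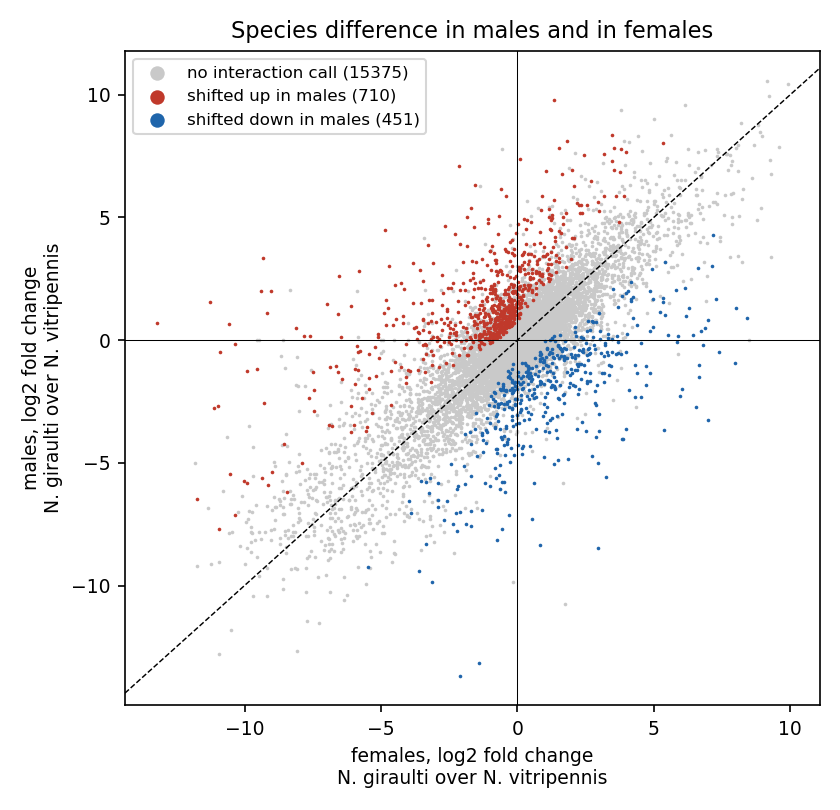
Species difference, as log2 of N. giraulti over N. vitripennis, in males (vertical) and in females (horizontal) for the 16536 tested genes; red and blue points passed the interaction test. The cloud follows the dashed line of equal difference, with 710 genes shifted up and 451 shifted down in males; the pair of points lowest on the male axis includes Nasvi2EG000207 at -13.67.

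Calls lay next to each other in the table more often than the overall rate of calls. Rows were taken in the order of their identifiers, leaving out pairs in which either row shares reads, which left 10089 adjacent pairs of tested genes. After a gene called higher in N. giraulti males the next was called higher in 27.3% of pairs, against 13.8% of all next genes. After a gene called lower the next was called lower in 31.7%, against 16.0%. Runs of 4 or more adjacent rows with the same call, none of them sharing reads, numbered 18 toward higher, with the longest of 7 rows, and 29 toward lower, with the longest of 8. With rows that share reads kept, the runs numbered 31 and 41. A number of runs to expect from the rates of calls is not given here. Identifiers within a run were not always consecutive. Neighbouring rows need not be neighbouring genes on a chromosome, since the files give no positions.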

How the data were processed

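The authors deposited estimated counts per gene, neither scaled nor pooled, for 12 libraries; 3372 of 24337 genes hold fractional values, and counts were rounded before testing. The tools that the submitters' processing notes list are TopHat2 2.0, Cufflinks 2.1.0, CASAVA 1.8.2, edgeR, bedtools, HTSeq, Trimmomatic and FastQC; their order, the annotation, the build and the strand setting were not given in the sources used here. None of the identifiers (0) matched the RefSeq name table of 15501 genes, so lists of named genes and marker checks were not run. No per-sample column was left unused.

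Genes were kept with filterByExpr (minimum count 10), scaled by TMM, and fitted with a mean per group over all 12 libraries in edgeR 4.0.16 (quasi-likelihood, robust; R 4.3.3). Adjusted p-values are Benjamini-Hochberg over all 16536 genes tested, 2763 (16.7%) of which share reads with another row, and the threshold was 0.05. The standard error is the absolute log2 fold change over the square root of F. For principal components a prior count of 2 was used in log2 CPM. The common dispersion was 0.111.

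Named genes had to pass in males without overlap between the species; in each direction, the largest difference in mean CPM and the largest fold at 10 CPM or more were taken. Genes described by rank or by class were singled out after their values were seen. The members and lists were chosen with earlier results of these data known.

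Depth was 23763596 to 51374887 counts per library; 3 counts are 0.0584 to 0.126 CPM. Replicate male libraries differed beyond sampling noise (chi-square per degree of freedom 53.2 to 245). Replicate numbers were checked for pairing by correlating deviations from group means. The values were 0.20 to 0.436 between the 3 male pairs with the same number and -0.426 to 0.325 between the 6 others. Over all 18 same-number pairs they were 0.20 to 0.708. Over all groups the numbers thus pair the libraries, by the data and not by the labels. Between the males this was not clear for numbers 2 and 3. There, number 3 of N. giraulti and number 2 of N. vitripennis correlated at 0.325, above the same-number values of 0.222 and 0.20. Alternatives were other scalings, filters, tests (DESeq2 1.42.0), males alone, the replicate block, single libraries left out, numbers 2 and 3 alone, and genes without shared reads.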

Additional observations from a re-analysis of the deposited data

Results flagged for a closer look

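A species difference that was not the same in males and females drew attention, by the interaction test itself. It was shifted up in males in 710 genes and down in 451. Nasvi2EG000207 was among the 451 (edgeR adjusted p = 3.42e-05), with 0 reads in N. giraulti males and 39.07 to 62.99 CPM in N. vitripennis males, and it passed in all 22 alternatives that give an interaction (highest adjusted p 0.000861). Nasvi2EG000206 was shifted up in males (log2 difference 1.99, SE 0.55, edgeR adjusted p = 0.0457), with 17900 CPM ± 5480 in N. giraulti males and 2088 CPM ± 1010 in N. vitripennis males. Its interaction lost the threshold in 16 of 22 alternatives, within a range of 0.0048 to 0.253, and kept its direction in all 22.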

How the results depend on the processing

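Main counts were 2483 genes higher and 2742 lower in N. giraulti males, 710 and 451 shifted up and down by the interaction, and 2065 and 3042 in females. Against a 2-fold change they were 1214 and 1532, 264 and 199, and 1020 and 1376. Keeping only the 13168 genes averaging 1 CPM or more, 1736 genes were higher and 1762 lower in males, and 1410 and 1733 in females. Library size alone gave 414 and 773 for the interaction. With the replicate number as a block, which pairs the libraries, males had 3550 and 3886, the interaction 1837 and 950, and females 3048 and 5022. The male log2 fold changes of the 4 named genes stayed past the threshold with the block. Leaving out each of the 12 libraries gave 2354 to 2745 genes higher and 2075 to 3066 lower in males, 441 to 679 and 314 to 437 for the interaction, and 1621 to 2654 and 2162 to 3260 in females. The lowest for the interaction came without replicates 3 (441) and 2 (464) of N. vitripennis males and replicate 3 of N. giraulti females (470). Of genes almost absent from N. giraulti males, 143 became 13 at 10 CPM in the other species, 39 at 0 reads and 286 at up to 10 reads; in N. vitripennis males 32 became 2, 5 and 102. No direction of the 4 named genes reversed in males. The causes were not tested. Each species has 3 pools, and low counts limit the fold changes of genes near 0 reads.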
